A study of Mus musculus with 4 samples.

Results

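Liver mononuclear cells from mice given concanavalin A (ConA) and FICZ were set against those from mice given ConA and TCDD, 2 ligands of the same receptor. Each side of the comparison was 1 single-cell RNA library, and all cells of both libraries were included: 2555 cells of ConA+FICZ and 1880 cells of ConA+TCDD, 4435 of the 9300 cells in the series. Genes were compared within 4 marker gates, namely B, T, natural killer (NK) and myeloid cells, which held 3034 of those cells.

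All libraries came from livers of C57BL/6 mice aged 8 to 10 weeks, with no genetic change named in the labels. A naive library and a ConA library given vehicle (ConA+Veh) completed the series, and the ConA livers were taken 24 h after ConA. Livers were digested with a dissociation kit and mononuclear cells were enriched on a Percoll gradient before droplet capture. The dose of FICZ, and the number of mice behind each library, were not given in the sources used here, so the doses of the ligands could not be matched and each value describes 1 library.

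The aryl hydrocarbon receptor (AhR) is a transcription factor that is held in the cytoplasm until a small molecule binds it. It then enters the nucleus, pairs with ARNT and switches on genes such as Cyp1a1, Cyp1b1, Ahrr, Tiparp and Nqo1. TCDD is a chlorinated dibenzo-p-dioxin that resists breakdown and holds the receptor active for long periods. FICZ is a formylated indolocarbazole derived from tryptophan, and it is cleared quickly by the CYP1 enzymes that the receptor induces. ConA is a plant lectin that activates T cells in the liver and causes an acute hepatitis, in which interferon-gamma and infiltrating myeloid cells are known to take part.

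With 1 library a side no test between the ligands was possible, and no p-value is given. Every interval is a 95% interval for counting error alone and does not cover the difference between mice. Levels are CPM, the counts of unique molecular identifiers (UMIs) scaled to 1000000 per gate, and ratios are log2 of the ConA+FICZ level over the ConA+TCDD level. A gene was called higher or lower when the levels differed by 2-fold or more, and only 1 pair of ligands was compared. Total UMIs were 16017797 in ConA+FICZ and 12077209 in ConA+TCDD, with medians of 3147 and 3761.5 UMIs per cell, and 6 cell barcodes occurred in both libraries. Xist was detected in the 4 gates of both libraries, and the Y-linked genes Ddx3y, Eif2s3y, Kdm5d and Uty had 0 UMIs there.

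The promoters of Ifit3, Oas3 and Irf7 are shown here because interferon-stimulated genes, which recur in the comparison, are known to be switched on through a short promoter element built around repeated GAAA. The type I interferon list of this report has 22 genes in the RefSeq promoter table (GRCm38.p6, 250 bases before to 50 after the transcription start), with 27 promoters between them. The motif GAAANNGAAA, searched on both strands, was found in 16 of those 27 promoters (59.3%), against 3.44% of all 32851 promoters in the table and 3.35% of the 7910 promoters of genes tested in a gate. Capitals mark the motif or its reverse complement, TTTCNNTTTC, and each sequence reads in the direction of its gene. The Ifit3 promoter (chr19:34583279-34583578, plus strand) holds the motif at 2 places, the Oas3 promoter (chr5:120777610-120777909, minus strand) at 1, and the Irf7 promoter (chr7:141266375-141266674, minus strand) has no match in this window.
Ifit3: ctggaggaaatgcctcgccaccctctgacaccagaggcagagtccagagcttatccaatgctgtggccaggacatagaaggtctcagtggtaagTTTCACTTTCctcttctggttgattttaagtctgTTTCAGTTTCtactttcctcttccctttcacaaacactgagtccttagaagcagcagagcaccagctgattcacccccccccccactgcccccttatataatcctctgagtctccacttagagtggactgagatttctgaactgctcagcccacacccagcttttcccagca
Oas3: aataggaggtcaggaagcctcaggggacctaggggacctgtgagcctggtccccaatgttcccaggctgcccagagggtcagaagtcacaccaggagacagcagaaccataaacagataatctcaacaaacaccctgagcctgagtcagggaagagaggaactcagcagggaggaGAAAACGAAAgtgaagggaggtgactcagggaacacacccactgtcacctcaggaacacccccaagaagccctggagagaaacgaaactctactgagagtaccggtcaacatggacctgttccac
Irf7: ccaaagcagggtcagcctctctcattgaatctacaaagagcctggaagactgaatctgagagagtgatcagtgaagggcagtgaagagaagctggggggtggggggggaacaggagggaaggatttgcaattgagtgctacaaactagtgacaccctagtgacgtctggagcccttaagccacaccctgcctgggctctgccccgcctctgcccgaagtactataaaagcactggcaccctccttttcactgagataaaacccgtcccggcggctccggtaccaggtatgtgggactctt

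The ConA+FICZ library held a larger share of myeloid cells, neutrophils and B cells than the ConA+TCDD library, and a smaller share of T and NK cells. Myeloid cells, the monocytes, macrophages and dendritic cells, were 203 of 2555 cells (7.95%, interval 6.93 to 9.06%) in ConA+FICZ and 37 of 1880 (1.97%, 1.39 to 2.70%) in ConA+TCDD, a 4.04-fold difference. Neutrophils were 257 cells (10.1%) and 41 cells (2.18%), a 4.61-fold difference. The ConA+Veh library had 7.63% myeloid cells, close to ConA+FICZ, and 3.49% neutrophils, nearer to ConA+TCDD.

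B cells were 31.2% (797 cells) in ConA+FICZ and 22.1% (415 cells) in ConA+TCDD, with 30.3% in ConA+Veh. T cells were 21.8% (556 cells) and 34.1% (642 cells), with 27.9% in ConA+Veh, so ConA+FICZ was the lowest and ConA+TCDD the highest of the ConA libraries. NK cells were 7.48% (191 cells) and 10.3% (193 cells), with 8.89% in ConA+Veh. The log2 ratios of these shares were 0.50 (0.33 to 0.67) for B cells, -0.65 (-0.82 to -0.48) for T cells and -0.46 (-0.75 to -0.16) for NK cells. These intervals leave out 0, but shares of 1 library depend on each other.

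Smaller populations also differed. Endothelial cells were 43 (1.68%) in ConA+FICZ and 8 (0.426%) in ConA+TCDD, while erythroid cells were 6 (0.235%) and 79 (4.20%), the largest deficit of ConA+FICZ at 17.9-fold. Granulocyte progenitors were 16 and 28 cells, plasmacytoid dendritic cells 11 and 14, and stellate or fibroblast cells 2 and 12. Cells with markers of more than 1 gate were 3.41% in ConA+FICZ and 6.17% in ConA+TCDD, and cells with too few marker UMIs for any gate were 7.63% and 15.4%.

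**Figure D1:**
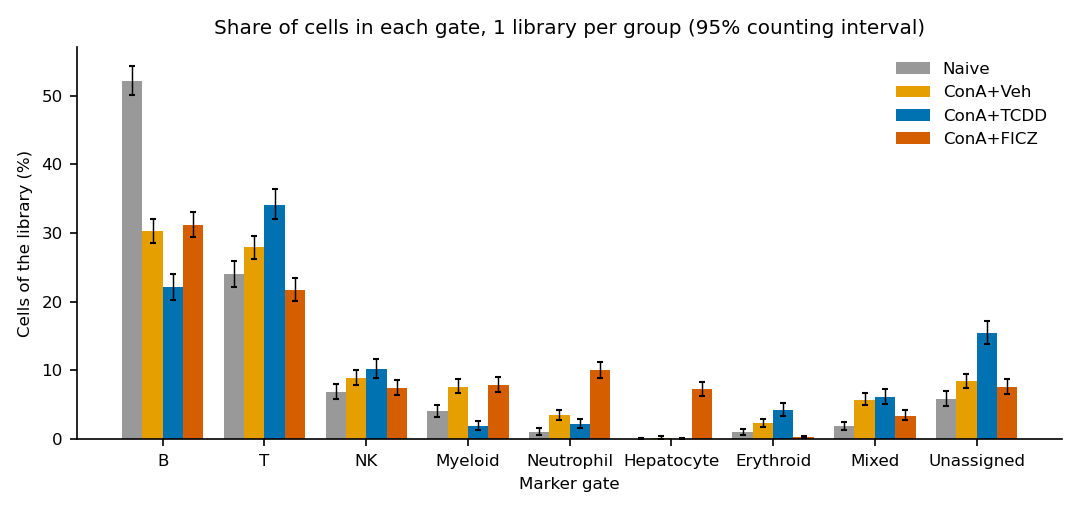
Percentage of each library's cells (vertical axis) in each marker gate (horizontal axis), with bars for the naive, ConA+Veh, ConA+TCDD and ConA+FICZ libraries and error bars for the 95% exact binomial interval. ConA+FICZ had more myeloid cells (7.95%) and neutrophils (10.1%) than ConA+TCDD (1.97% and 2.18%), and it alone had a tall hepatocyte bar (7.24%).

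Hepatocyte RNA set the ConA+FICZ library apart from the others. Cells with 20% or more of their UMIs from 31 hepatocyte genes, which encode secreted plasma and acute-phase proteins, were 185 (7.24%) in ConA+FICZ and 0 of 1880 in ConA+TCDD, which allows a share of up to 0.160% when 0 is taken as up to 3 cells of that library, and makes the difference at least 45.4-fold. There were 5 such cells (0.180%) in ConA+Veh and 0 in the naive library. In ConA+FICZ they had a median of 941 UMIs and 0.155% mitochondrial UMIs, against 14.3% mitochondrial UMIs in the 5 cells of ConA+Veh.

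The same transcripts appeared at a low level in the lymphocytes and myeloid cells of ConA+FICZ. A B cell carried 4.59 hepatocyte-list UMIs on average in ConA+FICZ and 0.0241 in ConA+TCDD. The averages were 5.50 and 0.269 for T cells, 2.81 and 0.0518 for NK cells, and 3.45 and 0.108 for myeloid cells. In each of these gates ConA+FICZ was the highest and ConA+TCDD the lowest of the 4 libraries. ConA+Veh averaged 0.926, 0.483, 0.518 and 0.689 in B, T, NK and myeloid cells, and the naive library 0.465, 0.384, 0.570 and 2.36. At least 1 such UMI was found in 67.5 to 77.2% of the cells of the 4 gates in ConA+FICZ, and in 1.93 to 10.8% in ConA+TCDD. This share was 31.7 to 42.5% in ConA+Veh and 27.6 to 51.8% in the naive library. In ConA+FICZ, Saa2, which encodes an acute-phase serum amyloid A, made up 13.8% of the list's UMIs in the hepatocyte gate and 12.5 to 14% in the other gates, neutrophils included. Other transcripts varied more: Orm1, an acute-phase glycoprotein gene, made up 6.68% in the hepatocyte gate and 12.4% in neutrophils, and Hpx, the heme carrier hemopexin, 5.56% in the hepatocyte gate and 8.13% in B cells.

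Genes for which free hepatocyte RNA was expected to give 20% or more of the ConA+FICZ UMIs were therefore left out of the ranking: 16 in B cells, 16 in T cells, 0 in NK cells and 1 in myeloid cells. They stayed in the counts of genes past 2-fold and in the gene lists. In B cells Saa1 had 479 UMIs in ConA+FICZ and 0 in ConA+TCDD, and Lcn2, which encodes an iron-carrier-binding protein of hepatocytes and neutrophils, had 247 and 3. Mt1, a metal-binding metallothionein, shows the effect on a gene that both cell types express: its B-cell ratio was 0.96 before and -0.85 after subtraction of the free UMIs, estimated at 71.6% of its ConA+FICZ count.

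**Figure D2:**
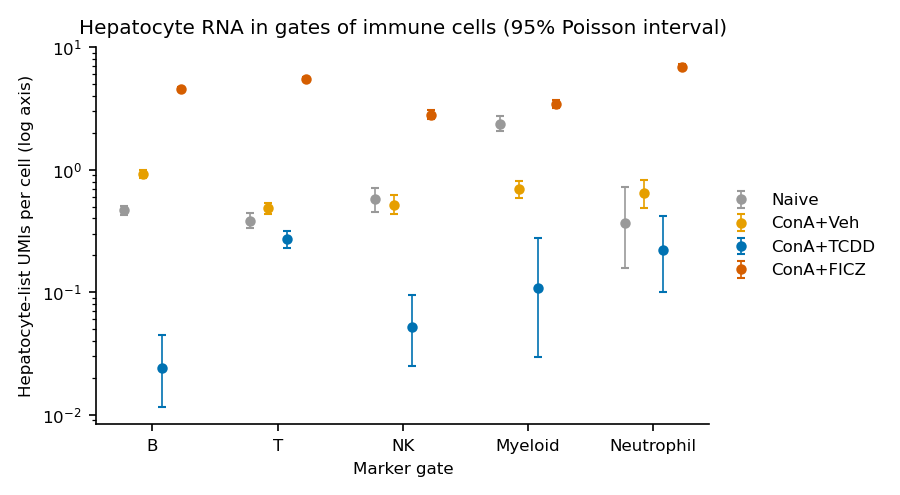
Mean number of UMIs per cell from the 31 hepatocyte genes (vertical log axis) in B, T, NK, myeloid and neutrophil cells of the 4 libraries, with 95% Poisson intervals. Every gate of ConA+FICZ lay above the same gate of the other libraries, from 2.81 UMIs in NK cells to 6.93 in neutrophils.

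Marker levels were also read within the gates. The B-cell list summed to 4645 CPM in the B gate of ConA+FICZ and 4013 CPM in that of ConA+TCDD. The gate rule itself sets this list high in the B gate and keeps the other lists low, so neither level is a check. Neutrophil transcripts spread little: S100a8 and S100a9 together were at 13.8 and 13.4 CPM in B cells, against 209017 and 217757 CPM in the neutrophil gate of ConA+FICZ and ConA+TCDD. They reached 324 CPM in the myeloid cells of ConA+FICZ and 89.8 CPM in those of ConA+TCDD, and their part in the myeloid results was not tested.

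Of the known AhR targets, Cyp1a1, Cyp1b1, Ahrr and Nqo1 were sparse in both libraries. Cyp1a1 (chr9:57687928-57703824), which encodes the classical dioxin-induced monooxygenase, had 104 UMIs in 8 cells of ConA+FICZ and 17 UMIs in 5 cells of ConA+TCDD. Of these, 94 UMIs lay in 7 of the 43 endothelial cells of ConA+FICZ and 14 in 2 of the 8 endothelial cells of ConA+TCDD. The level in endothelial cells was thus 449 and 435 CPM, against 4.07 CPM in ConA+Veh and 203 CPM, all from 1 cell, in the naive library. The B, T, NK and myeloid gates had 0 or 1 UMI of Cyp1a1 each.

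Other targets were as sparse. Cyp1b1, a second monooxygenase, had 40 UMIs in ConA+FICZ, 26 of them in 6 endothelial cells, and 20 UMIs in ConA+TCDD, none of them in endothelial cells. Ahrr, the repressor of the receptor, had 10 UMIs and 1 UMI. Nqo1, a quinone reductase, had 16 and 9, and Cyp1a2 and Il22 had 0 in both. At this depth no difference in these genes was detectable within a single leukocyte gate.

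The receptor itself was lower in the B cells of ConA+FICZ. Ahr (chr12:35497974-35535038) stood at 24.7 CPM in ConA+FICZ, 54.2 in ConA+TCDD, 32.4 in ConA+Veh and 18.2 in the naive library, a ratio of -1.13 (-1.52 to -0.74), with UMIs in 93 and 82 cells. ConA+TCDD was the highest of the 4 libraries and ConA+FICZ lay between naive and ConA+Veh. In T cells Ahr was at 19.9 and 27.8 CPM (-0.48, -0.82 to -0.15). In NK cells it was at 46.7 and 27.1 CPM, and in myeloid cells at 23.9 and 41.7 CPM, and both of those intervals included 0 (-0.15 to 1.76 and -1.78 to 0.25).

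Tiparp, a target that encodes an ADP-ribosyltransferase acting back on the receptor, was at 23.6 CPM in the B cells of ConA+FICZ and 36.1 in those of ConA+TCDD (-0.61, -1.05 to -0.17). It was at 98.5 and 96.2 CPM in myeloid cells, its highest level in the 4 gates, and at 233 and 209 CPM in neutrophils. Of the AhR genes listed, 6 reached 100 UMIs in B cells and 8 in T cells. None was higher by 2-fold in either gate and 1, Ahr in B cells, was lower, where 0.559% of all B-cell genes were lower.

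Most genes of the B gate had similar levels in both libraries. Of 5547 genes with 100 or more UMIs over the 2 libraries, 82 (1.48%) were 2-fold or more higher in ConA+FICZ and 31 (0.559%) lower, and the median ratio was -0.01. These counts include genes of expected free hepatocyte RNA, such as Saa1. The gate held 4408361 UMIs in ConA+FICZ and 2160102 in ConA+TCDD, so genes high only in ConA+TCDD needed a higher CPM to be compared. When each cell's CPM was averaged with equal weight, 108 were higher and 184 lower. Some interferon-stimulated, early response and heat shock genes were among the higher ones.

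Type I interferon-stimulated genes, which encode antiviral effectors and their regulators, were higher as a group in B cells. Of 18 measured, 4 were higher by 2-fold (Irf7, Ifit3, Oas3 and Rtp4) and 0 lower, the intervals of 15 lay above 0 and none below, and the median was 0.54. Over all 5547 genes the intervals of 768 lay above 0 and of 820 below. Irf7 (chr7:141262706-141266481), the regulator that sustains interferon production, was at 113 CPM in ConA+FICZ, 40.7 in ConA+TCDD, 85.9 in ConA+Veh and 53.5 in the naive library, a ratio of 1.47 (1.14 to 1.81). It was found in 315 of 797 and 70 of 415 B cells.

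Ifit3, which encodes a protein that binds viral RNA complexes, was at 20.2, 6.48, 13.5 and 16.0 CPM in the same order (1.64, 0.82 to 2.57). Oas3, a sensor of double-stranded RNA, was at 19.7, 6.48, 17.6 and 4.09 CPM (1.61, 0.78 to 2.54). In Irf7, Ifit3 and Oas3 the ConA+Veh level lay between ConA+FICZ and ConA+TCDD. Rtp4 was at 39.7 CPM in ConA+FICZ and 38.7 in ConA+Veh, against 18.5 CPM in ConA+TCDD (1.10, 0.60 to 1.63).

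The early response genes Fos, Dusp1 and Fosb and the heat shock genes Hspa1a and Hspa1b were higher by 2-fold in the B cells of ConA+FICZ, and the naive library was higher still in each. Fos (chr12:85473890-85477273), a subunit of the AP-1 transcription factor, was at 116 CPM in ConA+FICZ, 27.8 in ConA+TCDD, 42.8 in ConA+Veh and 612 in the naive library (2.06, 1.67 to 2.47). Dusp1, a phosphatase that turns off MAP kinases, was at 54.2, 17.1, 34.2 and 237 CPM (1.66, 1.16 to 2.20). The inducible heat shock gene Hspa1b was at 48.3, 12, 39.8 and 56.1 CPM (2.01, 1.41 to 2.65).

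Of 25 early response genes in B cells 3 were higher (Fos, Dusp1 and Fosb) and 1 lower (Nfkbiz), with a median of 0.04. Of 17 heat shock genes 2 were higher, Hspa1a and Hspa1b, and the median was -0.05. Over all B-cell genes 1.48% were higher and 0.559% lower, so the medians of both lists stayed near 0 while a few members stood out. The intervals of 11 early response genes lay above 0 and of 5 below, and those of 6 heat shock genes above and of 6 below. Over all 5547 genes 768 lay above 0 and 820 below. Hsh2d, an adaptor of lymphocyte signalling, was at 23.6 and 3.24 CPM (2.86, 1.77 to 4.21) and was spread over 94 and 7 cells.

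The ratios of Jchain and Ccl5 came from few cells. Jchain, which joins secreted antibody and marks plasma cells, had 374 UMIs in 4 cells of ConA+FICZ, 79.9% of them in 1 cell, and 0 in ConA+TCDD, at least 61.1-fold higher when 0 is taken as up to 3 UMIs in that library, while ConA+Veh stood at 229.7 CPM. Ccl5, a chemokine of T and NK cells, had 147 and 10 UMIs (2.85, 1.93 to 3.94), with 38.1% of the ConA+FICZ UMIs in 1 cell. When cells were put in the gate of their largest marker list with no margin over other lists, the ratio of Ccl5 was -0.05.

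The genes lower in the B cells of ConA+FICZ had varied roles. Bcl2a1b, a survival gene of activated B cells, was at 40.4 CPM in ConA+FICZ, 94.4 in ConA+TCDD, 75.4 in ConA+Veh and 123 in the naive library (-1.23, -1.52 to -0.93). Fabp5, a fatty acid carrier, was at 12.9, 35.2, 23.8 and 4.83 CPM (-1.44, -1.97 to -0.93). Cxcl10, an interferon-induced chemokine, was at 11.8, 32.4, 9.43 and 9.67 CPM (-1.46, -2.0 to -0.92), so only ConA+TCDD stood apart, and Cxcl10 moved against the type I interferon-stimulated genes above. Among 16 interferon-gamma-induced genes in B cells it alone was lower by 2-fold and 0 were higher, where 0.559% of all B-cell genes were lower. The intervals of 6 lay above 0 and of 5 below, with a median of 0.08.

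Nme2, a nucleotide kinase, was at 421 and 812 CPM (-0.95, -1.04 to -0.85). The noncoding gene AY036118 was at 142 and 359.7 CPM (-1.34, -1.50 to -1.19). Of 16 B-cell activation genes 0 passed 2-fold in either direction, and the intervals of 1 lay above and of 5 below 0, where 820 of all 5547 B-cell genes had intervals below 0. Cd86, a costimulatory ligand, was at 35.6 and 61.1 CPM (-0.78, -1.12 to -0.43), and Il2ra, the inducible interleukin-2 receptor chain, at 20.2 and 36.6 CPM (-0.86, -1.31 to -0.40). Of 10 MHC class II genes in B cells 0 passed 2-fold, with a median of 0.14.

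**Figure D3:**
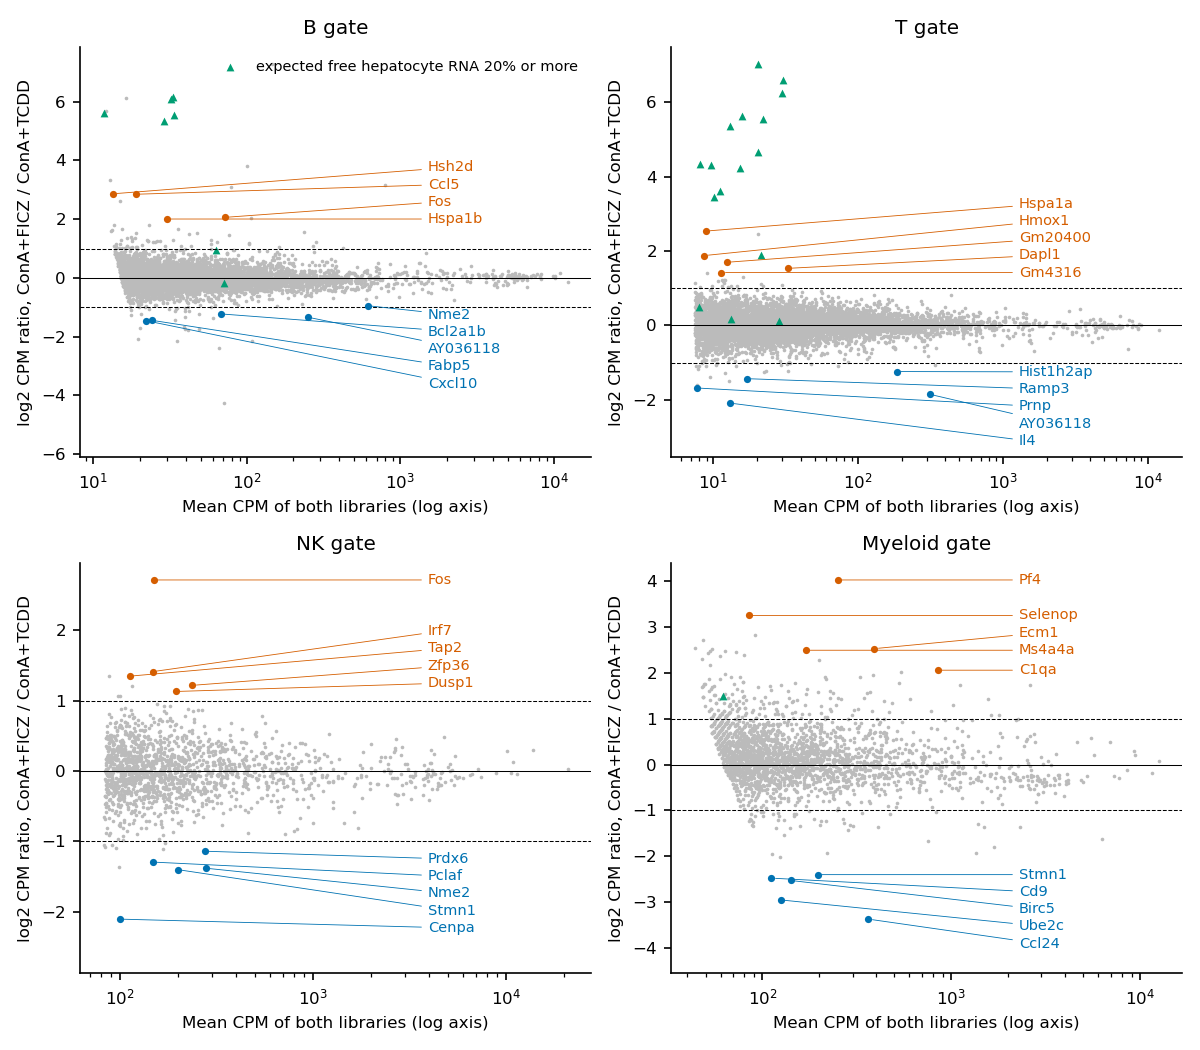
Log2 ratio of ConA+FICZ over ConA+TCDD (vertical axis) against the mean CPM of both libraries (horizontal log axis) for each gene with 100 or more UMIs in the B, T, NK and myeloid gates. Named points are the 5 highest and 5 lowest genes by the interval bound nearest 0, dashed lines mark 2-fold, green triangles mark genes of expected free hepatocyte RNA, and genes with 0 UMIs in 1 library, such as Jchain in B cells, have no ratio and are not drawn. The scatter of the myeloid gate was the widest, with 7.64% of its genes higher and 2.19% lower.

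Few genes passed 2-fold in T cells. Of 7439 genes 37 (0.497%) were higher and 28 (0.376%) lower in ConA+FICZ, and the mean of each cell's CPM gave 93 higher and 97 lower. Genes of expected free hepatocyte RNA stayed in these counts, such as Saa1 with a ratio of 6.25. The median ratio was 0.04, although T cells of ConA+FICZ were deeper (a median of 8576 UMIs against 6423). The genes that did differ included the cytokine genes Il4 and Ifng and the granzyme gene Gzma, all lower in ConA+FICZ, and the chemokine gene Ccl3, which was higher.

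Ifng (chr10:118441046-118445892), the central effector cytokine of ConA hepatitis, was at 19.0 CPM in the T cells of ConA+FICZ, 39.6 in ConA+TCDD, 29.1 in ConA+Veh and 99.4 in the naive library (-1.06, -1.37 to -0.75), in 49 and 73 cells. Gzma, a granule protease of killer lymphocytes, was at 217, 459, 338 and 186 CPM (-1.08, -1.17 to -0.99). In both genes ConA+Veh lay between the libraries given a ligand. Il4, the type 2 helper cytokine, was at 4.97, 21.2, 20.4 and 44.3 CPM (-2.09, -2.68 to -1.54), but it came from 17 and 28 cells, and among cells with no UMI of 5 cycling genes its ratio was 1.06.

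Ccl3, a macrophage inflammatory chemokine, was at 22.7 and 9.27 CPM (1.29, 0.85 to 1.75), and Areg, an epidermal growth factor relative, at 15.5 and 7.42 CPM from 13 and 12 cells (1.06, 0.56 to 1.59). In all, 2 of 11 cytokine genes measured in T cells were higher and 2 lower, and the intervals of 6 lay above 0 and of 2 below. Over all T-cell genes 0.497% were higher and 0.376% lower. Of 10 cytotoxic granule genes 1, Gzma, was lower and 0 higher, and the intervals of 3 lay above 0 and of 3 below. Gzmb was at 784 and 939 CPM (-0.26, -0.31 to -0.21) and Prf1, which encodes the pore-forming perforin, at 17.9 and 22.4 CPM (-0.33, -0.69 to 0.03).

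The listed MHC class I and type I interferon-stimulated genes that were measured in T cells differed by less than 2-fold. Of 12 MHC class I and immunoproteasome genes 0 passed 2-fold, but the intervals of 11 lay above 0 and of 0 below, with a median of 0.28. Of 15 type I interferon-stimulated genes 0 passed 2-fold, and the intervals of 10 lay above 0 and of 0 below, with a median of 0.32. Among 16 interferon-gamma-induced genes 0 passed 2-fold, and the intervals of 5 lay above 0 and of 1 below, with a median of 0.32. Irf7 was at 46.1 and 23.8 CPM (0.95, 0.67 to 1.24), and Tap2, a subunit of the peptide transporter, at 69.1 and 41.4 CPM (0.74, 0.52 to 0.96). Over all 7439 genes the intervals of 1426 lay above 0 and of 1003 below. Of 2 MHC class II genes Cd74, the invariant chain, was lower by 2-fold, at 19.6 and 45.9 CPM (-1.23, -1.53 to -0.93), and its ratio was -0.05 with no margin between marker lists. Over all T-cell genes 0.376% were lower.

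Stress and metal-response genes went both ways in T cells. Hspa1a (chr17:34969190-34972156), an inducible heat shock gene, was at 15.2 CPM in ConA+FICZ, 2.63 in ConA+TCDD, 14.5 in ConA+Veh and 116 in the naive library (2.53, 1.79 to 3.37), so ConA+TCDD alone was low. Hmox1, the heme-degrading enzyme, was at 13.6, 3.71, 7.38 and 3.24 CPM (1.88, 1.22 to 2.59), with 24.7% of the ConA+FICZ UMIs in 1 cell. The metallothionein genes were lower in ConA+FICZ than in ConA+TCDD and higher in both than in ConA+Veh: Mt2 was at 46.5, 98.3 and 13.8 CPM in ConA+FICZ, ConA+TCDD and ConA+Veh, and Mt1 at 218, 385 and 76.3 CPM, with 14.6% of the ConA+FICZ UMIs of Mt1 expected from free hepatocyte RNA.

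The other genes at the ends of the T-cell ranking had less familiar roles. Dapl1 was at 48.7 CPM in ConA+FICZ, 16.8 in ConA+TCDD, 47.0 in ConA+Veh and 143 in the naive library (1.53, 1.22 to 1.86). The predicted genes Gm20400 and Gm4316 had ratios of 1.70 and 1.42. Prnp, which encodes the prion protein, was at 3.66 and 11.7 CPM (-1.68, -2.40 to -1.01), and Ramp3, a receptor chaperone, at 9.22 and 24.9 CPM (-1.43, -1.88 to -1.0). AY036118 was lower here too, at 135 and 489.6 CPM (-1.85, -1.96 to -1.75). The histone gene Hist1h2ap was at 109 and 258 CPM (-1.24, -1.37 to -1.12), and its ratio was 0.32 among cells with no cycling gene UMI.

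T-cell subsets were compared after every cell was thinned to 1000 UMIs, since the depths differed. This left out 9 cells of ConA+FICZ and 15 of ConA+TCDD. Cells with Cd8a or Cd8b1 and no Cd4 were 28.5% of 547 and 24.1% of 627 (0.24, -0.09 to 0.58), cells with Cd4 alone 4.57 and 4.15%, and cells with Foxp3, the regulatory T-cell factor, 1.10 and 0.797%. Intervals of the ratio included 0 for all of these. Each share counts cells with a detected UMI and falls with thinning, so it is not the size of the subset. Without thinning the Cd8 cells were 44.1 and 40.2%, the Cd4 cells 14.7 and 13.1%, and the Foxp3 cells 3.96 and 2.34%. Cells with Trdc, the constant chain of gamma-delta receptors, were 20 (3.66%) and 8 (1.28%), a ratio of 1.52 (0.27 to 2.91). Cycling cells were 13.7 and 15.3% (-0.16, -0.61 to 0.29).

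In NK cells the genes past 2-fold included Fos, Zfp36 and Dusp1, higher in ConA+FICZ and the only ones of 24 early response genes measured to pass, and Cenpa and Stmn1, lower in ConA+FICZ. Of 1556 genes 9 (0.578%) were higher and 12 (0.771%) lower, with a median ratio of -0.01, and the mean of each cell's CPM gave 13 higher and 27 lower. The intervals of 216 genes lay above 0 and of 211 below, and the median of the early response list was 0.04. Fos was at 261 CPM in ConA+FICZ, 39.8 in ConA+TCDD, 40.4 in ConA+Veh and 421 in the naive library (2.71, 2.09 to 3.39). Zfp36, which destabilises cytokine messengers, was at 333, 143, 139.8 and 635 CPM (1.22, 0.84 to 1.60), and Dusp1 at 268, 123, 127 and 379.5 CPM (1.13, 0.72 to 1.54). For these 3 genes ConA+TCDD and ConA+Veh were nearly equal, and ConA+FICZ lay between them and the naive library.

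Irf7 was at 216 CPM in the NK cells of ConA+FICZ, 81.2 in ConA+TCDD, 124 in ConA+Veh and 128 in the naive library (1.41, 0.93 to 1.91). Trim30a, an interferon-stimulated member of the tripartite motif family, was at 162 and 70.0 CPM (1.21, 0.67 to 1.76). These were the 2 of 7 measured type I interferon-stimulated genes that passed 2-fold, 0 were lower, and the list's median was 0.70. Among 3 interferon-gamma-induced genes 0 passed 2-fold, and the intervals of 2 lay above 0 and of 0 below, with a median of 0.50. Tap2 was at 162 and 63.7 CPM (1.35, 0.79 to 1.92).

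Cenpa, a centromeric histone, was at 37.8 CPM in ConA+FICZ, 162 in ConA+TCDD, 90.1 in ConA+Veh and 18.8 in the naive library (-2.10, -2.86 to -1.42). Stmn1, a microtubule regulator of dividing cells, was at 109.7, 289.6, 297 and 15 CPM (-1.40, -1.84 to -0.98). All 3 mitosis genes measured in NK cells had intervals below 0, though their UMIs came from few cells: Top2a, the topoisomerase of dividing cells, was found in 13 and 24. Of 3 G1/S and replication genes 0 passed 2-fold, and the interval of 1 lay below 0. Pclaf, a replication clamp partner, was at 86.3 and 212 CPM from 10 and 22 cells (-1.29, -1.80 to -0.81), and without cycling cells Stmn1 stood at -0.67 and Pclaf at -0.57.

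Nme2 was at 155 and 403 CPM in NK cells (-1.38, -1.75 to -1.02) and Prdx6, a peroxidase, at 173 and 380.3 CPM (-1.14, -1.50 to -0.79). Of 5 cytokine and chemokine genes 0 passed 2-fold, the intervals of 4 lay below 0 and that of Ccl5 above (15262 and 12436 CPM, 0.30, 0.25 to 0.34). Ifng was at 252 CPM in ConA+FICZ, 429.7 in ConA+TCDD and 279.7 in ConA+Veh (-0.77, -1.08 to -0.47). Xcl1, which draws cross-presenting dendritic cells, was at 325, 602 and 498 CPM (-0.89, -1.15 to -0.63), and Ccl3 at 658, 1050.3 and 273 CPM (-0.67, -0.86 to -0.49). Ccl3 was therefore lower in NK cells and higher in T cells of ConA+FICZ. Of 9 cytotoxic granule genes in NK cells 0 passed 2-fold: Gzmb was at 5580.0 and 5923 CPM and Prf1 at 1122 and 1012 CPM.

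**Figure D4:**
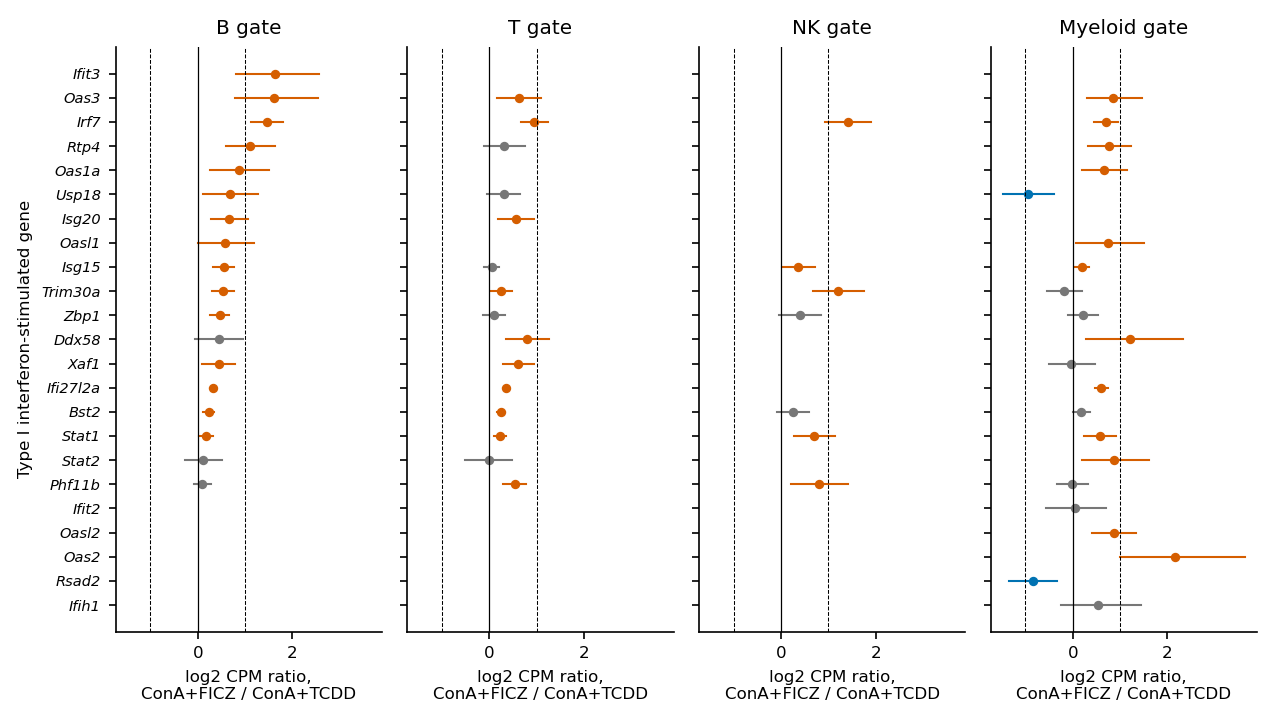
Log2 ratio of ConA+FICZ over ConA+TCDD (horizontal axis) for each measured gene of the type I interferon-stimulated list (rows) in B, T, NK and myeloid cells, with 95% counting intervals. Orange marks an interval above 0, blue one below 0 and grey one that includes 0, and dashed lines mark 2-fold. The intervals above 0 were 15 of 18 in B cells, 10 of 15 in T cells, 5 of 7 in NK cells and 12 of 21 in myeloid cells, and the only intervals below 0 were those of 2 genes in myeloid cells.

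Myeloid cells had the largest share of genes past 2-fold, and here the ConA+TCDD side rested on 37 cells. Of 2422 genes 185 (7.64%) were higher in ConA+FICZ and 53 (2.19%) lower, with a median ratio of 0.12. The gate held 1298855 UMIs in ConA+FICZ and 311882 in ConA+TCDD. A gene high only in ConA+TCDD therefore needed a higher CPM to be compared, and the excess of higher over lower genes partly follows from this. Of the lists described here, 7 of 16 measured macrophage genes were higher in ConA+FICZ, and 5 of 6 measured MHC class II genes were lower. The only 3 of 20 mitosis genes that were measured were also lower. The defining Kupffer cell genes Clec4f and Timd4 had 0 UMIs in both libraries, and Vsig4 and Marco had 0 UMIs in ConA+FICZ and 2 and 1 in ConA+TCDD.

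Of 16 genes of macrophage identity and polarization 7 were higher by 2-fold and 0 lower, the intervals of 13 lay above 0 and of 2 below, and the median was 0.97. Over all 2422 genes the intervals of 514 lay above 0 and of 333 below. The complement genes C1qa, C1qb and C1qc encode the 3 chains of the first complement component and lie next to each other on chromosome 4. C1qa (chr4:136895917-136898803) was at 1364 CPM in ConA+FICZ, 327 in ConA+TCDD, 954 in ConA+Veh and 579 in the naive library (2.06, 1.77 to 2.36). C1qb was at 4026, 1206, 3292 and 1314 CPM and C1qc at 1704, 509.8, 1561 and 592 CPM, each with a ratio of 1.74. For all 3 chains ConA+FICZ was highest, ConA+Veh next and ConA+TCDD lowest. These genes were also in 15 to 21 of the 37 ConA+TCDD cells, with 24.5 to 30.4% of the UMIs in 1 cell. Over the alternatives the ratio of C1qa was as low as 0.97, that of C1qb 0.78 and that of C1qc 0.60.

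Apoe, a lipid carrier of macrophages, was at 872 CPM in ConA+FICZ, 215 in ConA+TCDD, 530.3 in ConA+Veh and 1561 in the naive library (2.02, 1.66 to 2.40), and its ratio was as low as 0.88 over the alternatives. Ecm1 (chr3:95734147-95739569), a secreted matrix protein, was at 668, 115, 337 and 369 CPM (2.53, 2.05 to 3.06), and Ms4a4a, a membrane protein of macrophages, at 289, 51.3, 117 and 213 CPM (2.50, 1.78 to 3.32). Selenop (chr15:3268547-3280508), the selenium transport protein, was at 153, 16.0, 116 and 278 CPM (3.26, 2.01 to 4.90), and Mrc1, the mannose receptor, at 87.0, 16.0, 18.7 and 77.9 CPM (2.44, 1.18 to 4.09). ConA+TCDD was the lowest library for each of these 5 genes, though for Mrc1 it was close to ConA+Veh (16.0 and 18.7 CPM). Hepatocytes also make Apoe and Selenop, and free hepatocyte RNA was expected to give 0.790% and 3.47% of their ConA+FICZ UMIs.

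Pf4 (chr5:90772435-90773383), a chemokine of platelets that macrophages also express, had the largest difference of the ranked myeloid genes. It was at 472 CPM in ConA+FICZ, 28.9 in ConA+TCDD, 14.8 in ConA+Veh and 429 in the naive library (4.03, 3.10 to 5.17), with 613 UMIs in 52 of 203 cells and 9 UMIs in 4 of 37. The naive library was therefore close to ConA+FICZ in CPM, and both other ConA libraries were low. The naive level came from 165 UMIs in 7 of 85 cells. The platelet genes Itga2b, Gp9, Gp1bb and Treml1 had 0 UMIs in the myeloid gate of both libraries, and Ppbp had 3 UMIs in ConA+FICZ and 1 in ConA+TCDD.

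**Figure D5:**
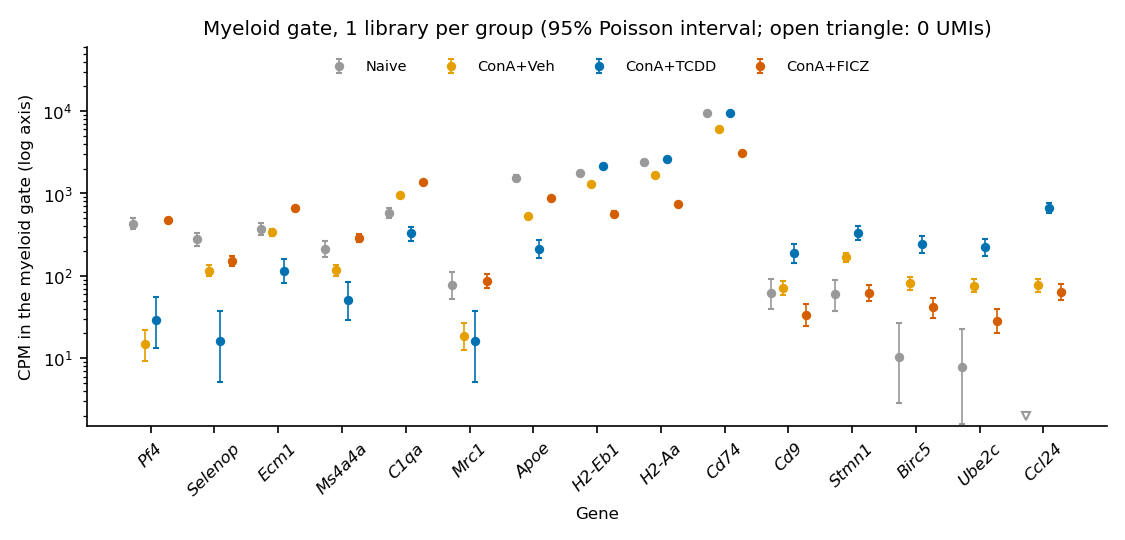
CPM (vertical log axis) of 15 genes in the myeloid gate of the naive, ConA+Veh, ConA+TCDD and ConA+FICZ libraries, 1 point per library with its 95% Poisson interval, and an open triangle for 0 UMIs. The macrophage genes on the left were lowest in ConA+TCDD, except that Pf4 was lower still in ConA+Veh and Mrc1 was at a similar level there. The MHC class II and division genes on the right were higher in ConA+TCDD than in ConA+FICZ.

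Myeloid inflammatory genes went both ways. Of 15 measured in myeloid cells 5 were higher by 2-fold and 0 lower, and the intervals of 8 lay above 0 and of 3 below. Over all myeloid genes 7.64% were higher and 2.19% lower. Of the 5, Lcn2 was set aside for its free hepatocyte RNA. Cxcl3, a neutrophil attractant, was at 120.1 and 32.1 CPM (1.91, 0.99 to 2.99), and its relative Cxcl2 at 3006 and 1501 CPM (1.0, 0.86 to 1.14). Saa3, a serum amyloid A made by macrophages, was at 222 and 83.4 CPM (1.41, 0.83 to 2.05). S100a8, a neutrophil and monocyte protein, was at 260.2 and 83.4 CPM (1.64, 1.07 to 2.28), in the gate where neutrophil-list genes were at 111 CPM in ConA+FICZ and 32.1 in ConA+TCDD. Over the alternatives these 4 ratios were as low as 0.68 for Cxcl3, 0.24 for Cxcl2, 0.33 for Saa3 and 0.66 for S100a8.

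Genes of the unfolded protein response, which enlarges the folding capacity of the endoplasmic reticulum, numbered 12 in myeloid cells: 4 were higher by 2-fold and 0 lower, with a median of 0.54. Over all myeloid genes 7.64% were higher and the median was 0.12. The chaperone Hspa5 was at 1452 CPM in ConA+FICZ, 593 in ConA+TCDD, 1075 in ConA+Veh and 875 in the naive library (1.29, 1.07 to 1.52), and Calr, which encodes calreticulin, at 1081, 484, 862 and 649 CPM (1.16, 0.92 to 1.41). Sdf2l1 and Pdia4, a cofactor and an isomerase of the same compartment, had ratios of 1.44 and 1.39. Fos was at 649 and 292 CPM (1.15, 0.84 to 1.48), and it was the only early response gene that passed 2-fold in B, NK and myeloid cells alike. Over the alternatives the myeloid ratios were as low as 0.88 for Hspa5, 0.83 for Calr, 1.17 for Sdf2l1, 1.03 for Pdia4 and 0.58 for Fos.

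Type I interferon-stimulated genes of myeloid cells were less uniform than those of lymphocytes. Of 21 measured, Oas2 and Ddx58 were higher by 2-fold, 0 were lower, and the median was 0.57. Over all myeloid genes 7.64% were higher, so this count was near that share, and the median was 0.12. Over the alternatives the ratio of Oas2 was as low as 0.96 and that of Ddx58 0.59. Oas2, a sensor of double-stranded RNA, was at 86.2 and 19.2 CPM from 77 and 5 cells (2.16, 1.0 to 3.64), and Ddx58, which encodes the RNA sensor RIG-I, at 74.7 and 32.1 CPM (1.22, 0.28 to 2.32). Irf7 was at 773 and 475 CPM (0.70, 0.45 to 0.96). In contrast Usp18, which removes ISG15, was at 71.6 and 138 CPM (-0.95, -1.48 to -0.39), with 58.1% of the ConA+TCDD UMIs in 1 cell, and Rsad2, the antiviral protein viperin, at 85.5 and 154 CPM (-0.85, -1.35 to -0.33), with 43.8% in 1 cell.

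MHC class II genes, which present antigen to helper T cells, were lower in the myeloid cells of ConA+FICZ: 5 of 6 passed 2-fold, 0 were higher, and the median was -1.49. H2-Eb1 was at 564 CPM in ConA+FICZ, 2142 in ConA+TCDD, 1319 in ConA+Veh and 1753 in the naive library (-1.92, -2.08 to -1.77). H2-Aa was at 748, 2619.6, 1699 and 2387 CPM (-1.81, -1.94 to -1.67), and Cd74, the invariant chain, at 3073, 9436, 6090.0 and 9528 CPM (-1.62, -1.69 to -1.55). ConA+FICZ was the lowest of the 4 libraries in each.

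The size of this difference rested on a few cells of ConA+TCDD, of which 1 gave 21.7 to 27.5% of the UMIs of these genes. Under the mean of each cell's CPM, which weights cells equally, the ratios of H2-Eb1, H2-Aa and Cd74 were -0.48, -0.69 and -0.26, and that of H2-Ab1, -1.37 as counted, was 0.21. Without cells that had a cycling gene UMI they were -0.25, -0.29, -0.14 and 0.36. The genes of cross-presenting dendritic cells Xcr1 and Clec9a had 0 and 4 UMIs in ConA+FICZ and 12 and 10 in ConA+TCDD, where 2 cells held them. Cells with a UMI of Cd209a, Clec9a, Xcr1 or Clec10a went the other way, at 24.6% of the gate in ConA+FICZ and 16.2% in ConA+TCDD. Thinned to 1000 UMIs, such cells were 4.95 and 2.78%. Both intervals of the ratio included 0 (-0.62 to 2.12 and -2.02 to 6.29). Among cells without dendritic gene UMIs the 4 ratios were -1.08, -1.14, -0.74 and -0.48.

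All 3 mitosis genes measured in myeloid cells, Ube2c, Birc5 and Top2a, were lower by 2-fold in ConA+FICZ. Ube2c and Birc5, a mitotic ubiquitin enzyme and survivin, had ratios of -2.96 (-3.57 to -2.36) and -2.53 (-3.06 to -2.01), from 7 and 9 cells of ConA+TCDD. Stmn1 was at 62.4 and 330.3 CPM (-2.40, -2.84 to -1.97), and at -0.24 without cycling cells. Thinned to 1000 UMIs, cycling myeloid cells were 3 of 182 (1.65%) in ConA+FICZ and 4 of 36 (11.1%) in ConA+TCDD. The ratio of these shares was -2.75 (-5.52 to -0.19). Thinned to 500 UMIs, cycling myeloid cells were 2 of 203 and 1 of 37, and the interval included 0 (-5.72 to 4.43).

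Ccl24 (chr5:135569937-135573049), an eosinophil-attracting chemokine of alternatively activated macrophages, was at 63.9 CPM in ConA+FICZ, 664 in ConA+TCDD, 76.6 in ConA+Veh and 0 in the naive library (-3.38, -3.76 to -3.00). It was found in 29 of 203 and 12 of 37 cells, 52.2% of the ConA+TCDD UMIs lay in 1 cell, and the ratio ranged from -4.73 to -1.40 over the alternatives. Cd9, a membrane tetraspanin, was at 33.9 and 189 CPM (-2.48, -3.08 to -1.89), and the interferon-gamma-induced chemokine Cxcl9 at 66.2 and 192 CPM (-1.54, -2.03 to -1.04). Cxcl9 was the only 1 of 12 interferon-gamma-induced genes lower by 2-fold and 0 were higher, where 2.19% of all myeloid genes were lower. The intervals of 1 lay above 0 and of 4 below, with a median of -0.09.

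Over all genes compared and not excluded from ranking, 10 were higher by 2-fold and 8 lower in more than 1 gate with intervals on that side of 0. In single gates, with the excluded genes counted, 0.497 to 7.64% of genes were higher and 0.376 to 2.19% lower. Fos was higher in B, NK and myeloid cells and Ifi206 in B, T and myeloid cells. Irf7 and Dusp1 were higher in B and NK cells, Ccl5 in B and myeloid cells, Rnf213 in NK and myeloid cells, and Hspa1a, Ifi213, Tespa1 and Cdc25b in B and T cells. AY036118 was lower in B, T and myeloid cells, Bcl2a1b in B and myeloid cells, and Bcl2a1d in B and T cells. Cd74 and Mt2 were lower in T and myeloid cells, Stmn1 and Pclaf in NK and myeloid cells, and Hist1h2ap in T and NK cells. These gates came from the same pair of libraries and are not independent of each other.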

How the data were processed

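The deposited files hold raw UMI counts per gene and cell for 4 libraries (31053 genes), which the authors made with bcl2fastq and Cell Ranger 3.0.2 on mouse build mm10, per the file headers and labels. From these counts, cells were gated by marker genes. A cell took the list with the most UMIs, given 2 or more UMIs and at least 3 times those of all other lists together. The hepatocyte and hemoglobin lists were left out of this margin, and the T and NK lists were joined for it. Within the joined gate a cell with 2 or more T-list UMIs was T, even if its NK-list UMIs were more. A cell below that was NK with 2 or more NK-list UMIs that were at least 3 times its T-list UMIs. Cells with 20% hepatocyte-list or 10% hemoglobin UMIs were gated first. No doublet caller was run, and cells with mixed markers were left out of the gates. Counts were summed per gate and scaled to CPM, and genes with 100 or more UMIs over both libraries were compared. This minimum is reached at a lower CPM in the library with more UMIs in the gate. Intervals are exact Poisson, Clopper-Pearson or binomial at 95%, and cover counting error only. Free hepatocyte UMIs were estimated from the hepatocyte gate's composition.

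Ranked genes are the 5 highest and 5 lowest of each gate by the interval bound nearest 0, without immunoglobulin and T-cell receptor segments, sex-linked genes, gate markers, hemoglobin genes and genes with 20% expected free RNA. AhR genes and the largest members of 23 gene lists were added. The platelet, Kupffer cell and dendritic genes, Saa1, Orm1, Hpx, Cd74 in T cells, Ccl5 in NK cells, the genes shared between gates, Gzmb in T and NK cells, Prf1 in NK cells, and C1qb, Cxcl2, Rsad2 and Irf7 in myeloid cells were chosen after their values were seen. The members and lists were chosen with earlier results of these data known. Alternatives changed the gate rule, cell filters, depth, scaling, free RNA and gene minimum, and 3 were chosen after seeing the data. Annotation was GENCODE M21 (30934 IDs matched), and promoters came from RefSeq. Scripts ran under Python 3.11.15 (scipy 1.17.1 for intervals, numpy 2.4.6 and pandas 2.3.3 for tables, matplotlib 3.10.9 for plots) and were tested on simulated data. One T-cell subset is not reported here.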

Additional observations from a re-analysis of the deposited data

How the results depend on the processing

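No paired analysis was possible because each group is 1 library and the comparison comes from no test, and for the same reason no library could be left out. Over the named genes, 1010 of 1156 log2 ratios under an alternative stayed within the counting interval of the reported value, and 140 left it. A sign change counted as a reversal only where the reported interval left out 0. Prf1 in T cells, whose interval included 0, went from -0.33 to as high as 0.15 and was not counted. By this rule 6 ratios reversed. In B cells they were Ccl5 (-0.052 with no margin between marker lists) and Mt1 (-0.85 with free hepatocyte UMIs subtracted). In T cells they were Il4 and Hist1h2ap (1.06 and 0.32 in cells with no cycling gene UMI). In myeloid cells H2-Ab1 reversed (0.21 as the mean of each cell's CPM and 0.36 in cells with no cycling gene UMI). The cause was not tested.

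Counts of genes past 2-fold moved by more than 1.5 times with the minimum number of UMIs per gene, which changes how many genes are compared. With 30 UMIs per gene they were 249 higher and 132 lower in B cells, 135 and 121 in T cells, 128 and 92 in NK cells, and 729 and 184 in myeloid cells. With 300 UMIs they were 24 and 6, 5 and 11, 0 and 2, and 54 and 16. The mean of each cell's CPM gave 184 lower genes in B cells, 93 higher and 97 lower in T cells, and 27 lower in NK cells. Cells with no cycling gene UMI gave 65 higher in T cells, and 102 higher and 21 lower in myeloid cells. Myeloid cells with 3 or more C1q UMIs gave 105 and 34, and those with no dendritic gene UMI gave 95 and 25, all from fewer cells. Subtracting free hepatocyte UMIs gave 75 and 33 in B cells and 32 and 30 in T cells, where a gene left with UMIs only in ConA+FICZ still counted as higher.

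The log2 ratio of shares was 0.74 with 5 marker UMIs and 0.81 with cells thinned to 1000 UMIs for B cells, and -0.41 and -0.40 for T cells. The share of hepatocyte-list UMIs in ConA+FICZ was 0.0798% with the mitochondrial and gene filter and 0.0573% without cells above 1% in B cells. It was 0.0429, 0.0418, 0.0416, 0.0312 and 0.0529% in T cells with 3 and 5 marker UMIs, the filter, no cells above 1%, and no top 2% of cells. It was 0.0847, 0.0727, 0.0843 and 0.0747% in NK cells with the first 4 of these, and 0.0489 and 0.0459% in myeloid cells with 5 marker UMIs and no cells above 1%. In ConA+TCDD T cells it was 0.00158% with 5 marker UMIs, 0.00166% with the filter and 0.00314% without the top 2%. The 37 myeloid cells of ConA+TCDD set the precision of every myeloid ratio.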

Other observations

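Neutrophils, which stood outside the 4 gates compared, had 257 cells in ConA+FICZ and 41 in ConA+TCDD. Of 942 genes with 100 or more UMIs over both libraries, 93 (9.87%) were 2-fold or more higher in ConA+FICZ and 24 (2.55%) lower. The gate held 677596 UMIs in ConA+FICZ and 95749 in ConA+TCDD, so genes high only in ConA+TCDD needed a higher CPM to be compared. Thbs1, which encodes the matrix glycoprotein thrombospondin, was at 1681 CPM in ConA+FICZ, 439 in ConA+TCDD, 697 in ConA+Veh and 1408 in the naive library (log2 ratio 1.94, 1.49 to 2.42). Slfn4, a schlafen gene of myeloid cells, was at 3641, 1243, 1671 and 5085 CPM (1.55, 1.28 to 1.83). The naive library was close to or above ConA+FICZ for both genes. The chemokine gene Ccl4 was at 2708 and 1180.2 CPM (1.20, 0.92 to 1.49) and Cxcl2 at 16997 and 11363 CPM (0.58, 0.49 to 0.67).

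Over all neutrophil genes compared, 9.87% were higher and 2.55% lower, with a median ratio of 0.10. Of 26 type I interferon-stimulated genes in neutrophils 3 were higher by 2-fold, near that share, and 0 lower, with a median of 0.39. Among them Oas2, also higher in myeloid cells, was at 187 and 83.6 CPM from 92 and 7 cells (1.17, 0.14 to 2.41). Lower genes leaned on single cells of ConA+TCDD: Hmgb1, a chromatin protein, was at 109 and 564 CPM (-2.37, -2.89 to -1.83), with 63.0% of its ConA+TCDD UMIs in 1 cell, and H2afz, a histone variant, at 246 and 1118 CPM (-2.18, -2.54 to -1.82), with 66.4% in 1 cell. Neutrophils of ConA+FICZ also carried the most free hepatocyte RNA of the immune gates, 6.93 UMIs per cell against 0.220 in ConA+TCDD. It was expected to give 0% of the ConA+FICZ UMIs of Thbs1 and Slfn4, 1.49% of Hmgb1 and 0.489% of H2afz. Its part in the neutrophil ratios was not tested.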
